A study of Mus musculus with 12 samples.

Results

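Complement and coagulation are the enzyme cascades of blood plasma, and the liver makes most of their proteins. The 44 genes described here are 21 of complement and 23 of coagulation and fibrinolysis, listed by name. A gene was measured where an array probeset, a group of short probes against 1 transcript, carried it as its only gene in the platform annotation, and its brightest probeset with a mean at or above the median of all non-control probesets stood for it. In this way 42 of the 44 were measured among 11899 genes in all, 20 of complement and 22 of coagulation. The other 2, C3 and Cpb2, were named by no probeset in the annotation used here, and 0 of the named members lay below the filter. C5 carries the symbol Hc in the mouse and C1s the symbol C1s1.

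Livers came from male C57BL/6 mice of 2 groups of 6, with 1 Affymetrix array per mouse. The control mice had no antibiotic, and the penicillin mice drank water with low-dose penicillin, begun after weaning. Livers were taken after 7 weeks of intervention. All mice shared strain, sex, vendor and light cycle per the labels, which give no dose, age in days or cage.

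Complement can be started by antibody through C1, by sugar-binding lectins through the MASP proteases, or by the alternative route of factor B and properdin. All 3 routes meet at the cleavage of C3 and end in a pore built from C5 to C9. In coagulation, proteases activate each other until thrombin, made from F2, turns fibrinogen into fibrin, and plasmin, made from Plg, dissolves the clot. Hepatocytes make most of these proteins. In liver, C1q comes mainly from Kupffer cells, the resident macrophages, properdin (Cfp) from myeloid cells, and factor VIII and von Willebrand factor from endothelial cells. Several of the hepatocyte genes, those of fibrinogen among them, are induced in inflammation as acute phase genes.

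The 3 fibrinogen genes lie close together on chromosome 3 and gave the smallest p-values of all members, so their promoters are shown. Each line is the 250 bases before the RefSeq start of the gene, from its own strand, taken from the RefSeq promoter table of GRCm38.p6. Fga lies at chr3:83025903-83026152 on the plus strand, Fgg at chr3:83007474-83007723 on the plus strand and Fgb at chr3:83049864-83050113 on the minus strand. Capitals mark matches on either strand to 3 motifs: CTGGGAA, the core of the element through which interleukin-6 acts on acute phase genes, TTNNGNAA, a core of C/EBP sites, and GTTAAT, the core of HNF1 sites.
Fga: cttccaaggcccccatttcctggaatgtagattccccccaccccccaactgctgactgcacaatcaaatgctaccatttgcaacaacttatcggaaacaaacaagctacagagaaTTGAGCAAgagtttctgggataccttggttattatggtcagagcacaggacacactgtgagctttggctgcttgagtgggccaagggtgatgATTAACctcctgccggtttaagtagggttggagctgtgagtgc
Fgb: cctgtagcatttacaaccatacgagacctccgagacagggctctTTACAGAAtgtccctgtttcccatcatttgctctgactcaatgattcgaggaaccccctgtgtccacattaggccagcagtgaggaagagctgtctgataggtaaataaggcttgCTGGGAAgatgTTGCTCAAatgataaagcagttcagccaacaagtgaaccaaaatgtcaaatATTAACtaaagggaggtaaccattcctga
Fgg: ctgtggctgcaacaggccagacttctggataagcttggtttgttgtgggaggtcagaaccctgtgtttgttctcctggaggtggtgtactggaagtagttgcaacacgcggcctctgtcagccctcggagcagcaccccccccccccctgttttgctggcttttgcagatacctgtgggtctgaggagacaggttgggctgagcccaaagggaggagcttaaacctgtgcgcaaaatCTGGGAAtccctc

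CTGGGAA stood in Fgb and Fgg, TTNNGNAA in Fga and Fgb, where it had 2 matches, and GTTAAT in Fga and Fgb. The table held windows for 34 of the 44 members. Of these, 4 had CTGGGAA (11.8%, against 10.4% of all 27025 genes in the table), 15 had TTNNGNAA (44.1% against 40.3%) and 8 had GTTAAT (23.5% against 7.49%). The 8 were Fga, Fgb, C4bp, C5, C8a, C8b, Cfp and F13b. Of these, C8a and C8b adjoin each other on chromosome 4. A match is a description of letters in the window.

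The comparison of penicillin with control asked whether the treatment went with other levels of these transcripts. No member passed. With limma, 0 of 20 complement and 0 of 22 coagulation members had an adjusted p under 0.05 over all genes, as did 0 (0.0%) of the 11899 genes, and the smallest adjusted p among members was 0.588, that of Fga. At an unadjusted p under 0.05 there were 950 genes (7.98%), of which 4.33% of all genes were higher and 3.66% lower, and 3 members, all of coagulation and all lower. In 0 members did the groups lie apart without overlap, against 0.412% of all genes. The fit without a variance prior also called 0 genes. Most members lay slightly lower with penicillin: 17 of 20 complement members and 21 of 22 coagulation members had a log2 difference below 0, as had 47.2% of all genes. The median log2 difference was -0.06 for complement and -0.07 for coagulation, against 0.01 over all genes, and the members' differences ran from -0.20 for Cfp to 0.13 for F11. The differences were bounded narrowly. The outermost bounds of the 95% intervals were -0.46 for Cfp and 0.37 for F11. All 42 intervals lay within 0.5 of 0 on the log2 scale, which is 1.41-fold, as did 88.2% of those of all genes. Without control 1, control 3 and control 5, 39 of 42 did, with -0.64 as the outermost bound, against 84.5% of all genes. Members share mice and arrays and move together in part, so the count of lower members is not a count of separate results. In bulk liver, fewer cells of a type and less RNA per cell cannot be told apart.

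**Figure D1:**
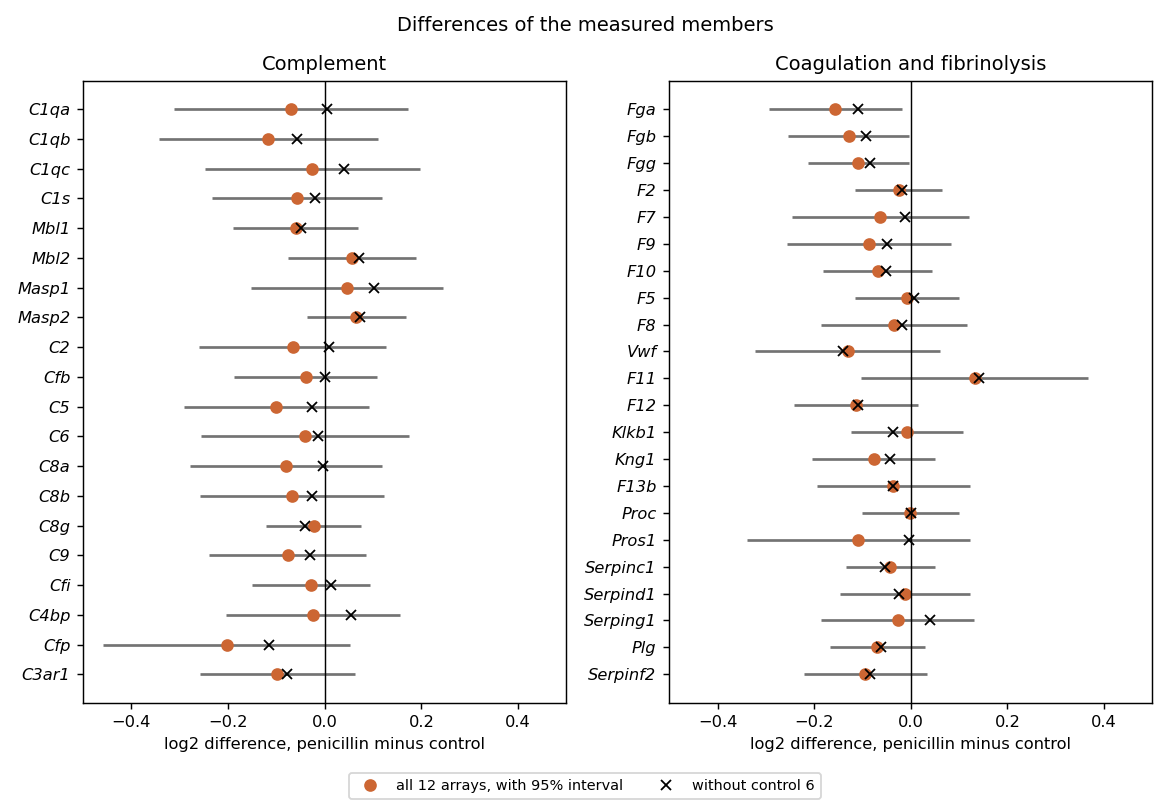
Log2 difference (penicillin minus control, x axis) of each of the 42 measured members, complement on the left and coagulation on the right; circles use all 12 arrays with the 95% interval of limma as a line, and crosses leave out control 6. Circles lie left of 0 for 17 of 20 and 21 of 22 members, all intervals lie within 0.5 of 0, and without control 6 the crosses lie left of 0 for 12 of 20 and 18 of 22.

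Control 6 stood apart in these genes and is described before the single members. In this liver the acute phase list, 27 measured genes of which none is a member here, stood 1.53 above its mean over the 12 arrays on the log2 scale, with the other controls at -0.53 to 0.20 and the penicillin mice at -0.33 to 0.03. Lcn2, the siderophore-binding lipocalin 2, had the widest range of the list: its log2 intensity was 11.78 in control 6, while the control median was 5.44 and the penicillin mice lay at 5.37 to 6.07. Control 6 was the highest of the 12 arrays for 21 of the 42 members, 12 of complement and 9 of coagulation, and for 12.4% of all genes. Without it, 12 of 20 complement members (median -0.0093) and 18 of 22 coagulation members (median -0.04) were below 0, as were 46.3% of all genes, and 0 members passed. Control 1, control 3 and control 5, which stood apart in immediate early genes, moved the values the other way: without these 3 arrays the median was -0.13 for complement and -0.08 for coagulation. At an unadjusted p under 0.05 there were then 3 of 20 complement and 3 of 22 coagulation members, all lower, against 2.25% of all genes that were lower at that level, and 0 members passed. Without control 6 the sign turned for 8 of the 42 members (C1qa, C1qc, C2, Cfi, C4bp, F5, Proc and Serping1), and 18 more kept their sign but moved by over 1.5 times. Without control 1, control 3 and control 5 the sign turned for 4 (Mbl2, Masp1, C8g and Serpind1), and 21 more moved by over 1.5 times. In the acute phase list 27 of 27 genes were lower with penicillin with all arrays (median -0.29, mean -0.42). Without control 6, 10 were higher and 17 lower, with a median of -0.06 and a mean of -0.16, and the lowest gene was at -1.45.

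The fibrinogen chains had the smallest p-values among the coagulation members. Fga, Fgb and Fgg encode the alpha, beta and gamma chains of the 1 protein that thrombin turns into fibrin. The log2 intensity of Fga was 13.34 at the lowest, 13.41 at the median and 13.68 at the highest in controls, and 13.18, 13.31 and 13.35 with penicillin. The groups overlapped only by the highest penicillin liver, since 5 of 6 controls lay above all penicillin mice and 5 of 6 penicillin mice below all controls. The log2 difference was -0.16 (SE 0.06, 95% interval -0.29 to -0.02), a change of -10.3%, with an unadjusted limma p of 0.0285 and an adjusted p of 0.588.

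Fgb was at 14.25, 14.29 and 14.50 (lowest, median, highest log2 intensity) in controls and at 14.07, 14.21 and 14.31 with penicillin. Its log2 difference was -0.13 (SE 0.06, interval -0.25 to -0.0030; limma adjusted p = 0.619). Fgg was at 14.31, 14.37 and 14.50 in controls and 14.21, 14.26 and 14.34 with penicillin, a log2 difference of -0.11 (SE 0.05, interval -0.21 to -0.0038; limma adjusted p = 0.615). In all 3 chains control 6 was the highest and penicillin 1 the lowest of the 12 livers. These were the 3 members with an unadjusted p under 0.05, all lower, beside 3.66% of all genes that were lower at that level. Without control 6 the differences were -0.11 for Fga, -0.09 for Fgb and -0.08 for Fgg, and 0 members had an unadjusted p under 0.05, against 10.5% of all genes. The same count was 0 without penicillin 1 and without penicillin 6, where 3.37% and 2.87% of all genes were lower at that level. It was also 0 without control 6, penicillin 1, penicillin 5 and penicillin 6, against 2.45%. These livers had the highest means of the clock genes, at 0.34 to 0.50 against -0.41 to 0.06 in the others. Without control 1, control 3 and control 5 the differences were larger, at -0.21 for Fga, -0.18 for Fgb and -0.15 for Fgg. All 3 chains then had an unadjusted limma p under 0.05, against 2.25% of all genes that were lower at that level. Over all 24 alternatives the count of coagulation members at that level ran from 0 to 4.

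**Figure D2:**
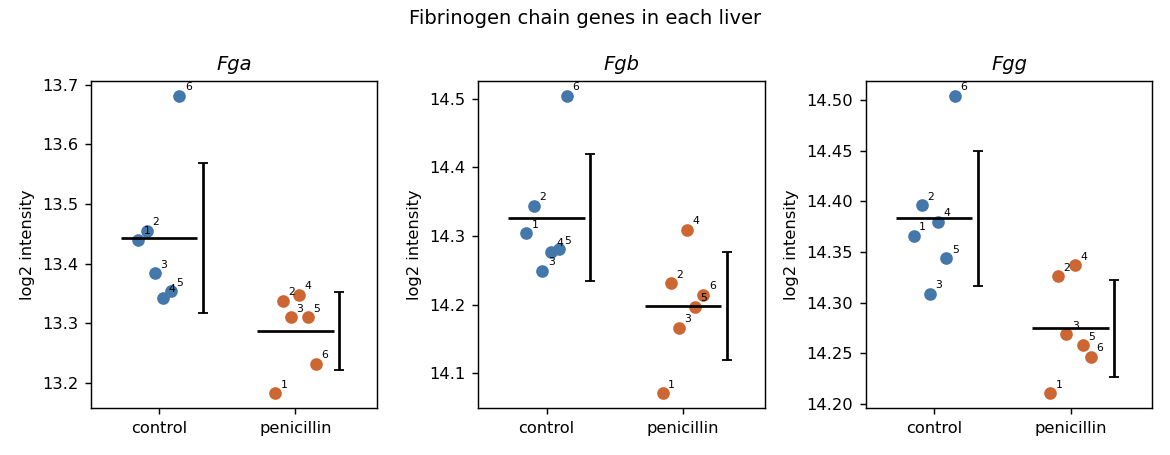
Log2 intensity of Fga, Fgb and Fgg in each of 6 control and 6 penicillin livers (points, numbered by mouse), with the group mean as a line and 1 SD as an error bar; the y axes do not start at 0 and differ between panels. Control 6 is the highest point and penicillin 1 the lowest in each panel, and the differences of the means are -0.16, -0.13 and -0.11.

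Transcripts of the 3 chains followed each other from mouse to mouse. Over the 12 arrays Pearson's r was 0.93 for Fga with Fgb, 0.94 for Fga with Fgg and 0.95 for Fgb with Fgg, with Spearman's rho of 0.90, 0.88 and 0.90 (permutation tests, adjusted p = 3.6e-04, 2.67e-04 and 2.4e-04 for r and 0.00107, 0.00136 and 0.00107 for rho, over 16 pairs of members). Without control 6 and penicillin 1, the arrays farthest from the median of the first gene, r was 0.75, 0.81 and 0.88. Within the 6 controls r was 0.97, 0.89 and 0.97, and within the 6 penicillin mice 0.78, 0.90 and 0.87. The values within controls include control 6, the highest liver for all 3 chains, and r within controls without it was not computed. The exact permutation p within a group of 6 was 0.00556 to 0.0431 in controls and 0.0236 to 0.0556 with penicillin.

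Of the 4 vitamin K-dependent procoagulant zymogens, which need carboxylated glutamates to bind membranes, all were slightly below 0 and none passed. The log2 difference was -0.03 for F2 (prothrombin), -0.06 for F7, -0.09 for F9 and -0.07 for F10, with limma adjusted p of 0.793 to 0.921. F2 was among the steadiest transcripts of the set, at 13.77 to 13.84 in controls and 13.73 to 13.81 with penicillin, and its 95% interval was -0.12 to 0.06. F7, which starts the extrinsic route with tissue factor, spread more widely, from 11.33 to 11.73 in controls and from 11.16 to 11.53 with penicillin. F7 and F10 neighbour each other on chromosome 8, and their levels gave r = 0.56 over the 12 arrays and 0.38 without control 6 (permutation test, adjusted p = 0.105).

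The cofactors and the carrier of factor VIII also differed little. F5, the cofactor of the prothrombin-activating complex, had a log2 difference of -0.01 (interval -0.12 to 0.10). F8, the cofactor lacking in haemophilia A, was at 7.53, 7.71 and 7.76 in controls (lowest, median, highest log2 intensity) and 7.47, 7.60 and 7.83 with penicillin, a log2 difference of -0.03 (SE 0.07; limma adjusted p = 0.936). Vwf, which carries factor VIII in plasma, was at 5.17, 5.37 and 5.61 in controls and 5.06, 5.28 and 5.36 with penicillin, a difference of -0.13 (SE 0.09; limma adjusted p = 0.755). Vwf was lowest in penicillin 5 and highest in control 2, and the groups overlapped. Endothelial markers were highest in the same control: the mean of 16 such genes was 0.21 in control 2, -0.09 to 0.05 in the other controls and -0.08 to 0.07 with penicillin. In control 1 the markers were the lowest of all livers, at -0.09, while Vwf was at 5.52. In penicillin 4 the markers were at 0.07, while Vwf was at 5.10. The part of endothelial cells in the level of Vwf was not tested.

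The contact system held the 1 coagulation member above 0, F11, and the member with the next smallest p after the fibrinogen chains, F12. F12, which starts the intrinsic route on negatively charged surfaces, was at 11.85, 11.98 and 12.11 (lowest, median, highest log2 intensity) in controls and 11.73, 11.88 and 11.94 with penicillin. Its difference was -0.11 (SE 0.06, interval -0.24 to 0.02; limma adjusted p = 0.676), and 4 of 6 controls lay above all penicillin mice. F11, which F12 activates, had a log2 difference of 0.13, but its livers ranged widely, from 9.55 to 10.12 in controls and from 9.58 to 10.20 with penicillin (interval -0.10 to 0.37). Klkb1, plasma prekallikrein, had a difference of -0.01 and Kng1, kininogen, -0.08. Klkb1 and F11 adjoin each other on chromosome 8 and are related in sequence, yet their levels gave an r of 0.0014 over the 12 arrays (permutation test, adjusted p = 0.996). F13b, the carrier subunit of the enzyme that crosslinks fibrin, had a difference of -0.04.

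Among the inhibitors of clotting, Serpinc1, antithrombin, was among the least variable members. Its log2 intensity was 14.13, 14.20 and 14.24 in controls and 14.11, 14.14 and 14.18 with penicillin, a difference of -0.04 (SE 0.04, interval -0.13 to 0.05; limma adjusted p = 0.861). Serpind1, heparin cofactor II, had a difference of -0.01, Serping1, the C1 inhibitor that also restrains the contact system, -0.03, and Proc, protein C, -0.0015 with an interval of -0.10 to 0.10. Pros1, protein S, the cofactor of protein C that also circulates bound to C4bp, had a difference of -0.11, which was -0.0038 without control 6. In that liver Pros1 stood at 9.41, against 8.65 to 8.86 in the other 11.

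In fibrinolysis, Plg (plasminogen) was at 13.84, 13.90 and 13.94 in controls and 13.75, 13.83 and 13.90 with penicillin. The log2 difference was -0.07 (SE 0.05, interval -0.17 to 0.03; limma adjusted p = 0.752), and 4 of 6 penicillin mice lay below all controls. Serpinf2, the inhibitor of plasmin, was at 12.22, 12.31 and 12.47 in controls and 12.06, 12.27 and 12.29 with penicillin, a difference of -0.09 (SE 0.06; limma adjusted p = 0.735). Penicillin 5 was the lowest liver for both genes. It was the lowest for 6 of the 22 coagulation members, as was penicillin 3, against 5.99% of all genes for penicillin 5 and 9.75% for penicillin 3.

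In complement, all 4 genes of the C1 complex were slightly below 0 and none passed. C1qa, C1qb and C1qc encode the 3 chains of C1q, which recognises bound antibody, and C1s a protease it carries. C1qa was at 9.61, 9.83 and 10.27 (lowest, median, highest log2 intensity) in controls and 9.59, 9.83 and 10.02 with penicillin. C1qb was at 10.02, 10.14 and 10.55 against 9.93, 10.13 and 10.29, and C1qc at 8.90, 9.11 and 9.53 against 9.03, 9.19 and 9.29. The medians of the groups thus lay close, while control 2 and control 6 were high in all 3 chains. Log2 differences were -0.07 (SE 0.11), -0.12 (SE 0.10) and -0.03 (SE 0.10), with limma adjusted p of 0.836 to 0.970. Without control 6 they were 0.0045 for C1qa, -0.06 for C1qb and 0.04 for C1qc. Without control 1, control 3 and control 5 they were -0.23, -0.25 and -0.13. C1s had a difference of -0.06, and -0.18 without those 3 arrays, on a probeset whose name marks probes shared with other transcripts.

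The C1q chains followed each other as the fibrinogen chains did. Over 12 arrays r was 0.95 for C1qa with C1qb, 0.86 for C1qa with C1qc and 0.91 for C1qb with C1qc, with rho of 0.94, 0.84 and 0.84 (permutation tests, adjusted p of 1.6e-04, 0.00112 and 4.8e-04 for r and 6.4e-04, 0.00325 and 0.00325 for rho). Without control 2 and control 6, r was 0.93, 0.62 and 0.69. Within controls, with control 2 and control 6 kept, it was 0.96, 0.90 and 0.97 and within the penicillin mice 0.97, 0.78 and 0.80. Markers of Kupffer cells stood high and low in some of the same livers. The mean of 13 such genes was 0.43 in control 6, 0.18 in control 2 and -0.28 in penicillin 3, where the mean of the 4 C1 genes was 0.33, 0.27 and -0.22. The order differed in other livers: penicillin 1 was at -0.11 with the C1 genes at 0.02, and penicillin 2 at 0.02 with the C1 genes at -0.07. Over all livers the Kupffer markers ran from -0.15 to 0.43 in controls and from -0.28 to 0.14 with penicillin. Of the 13, 10 were lower with penicillin (median -0.10) and 0 passed. Without control 6, 7 of 13 were lower (median -0.0076), and without control 1, control 3 and control 5 all 13 were (median -0.19). Marco, a scavenger receptor, had the widest range, 6.72 to 8.02 in controls and 6.69 to 7.84 with penicillin. Their part in the C1q levels was not tested.

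**Figure D3:**
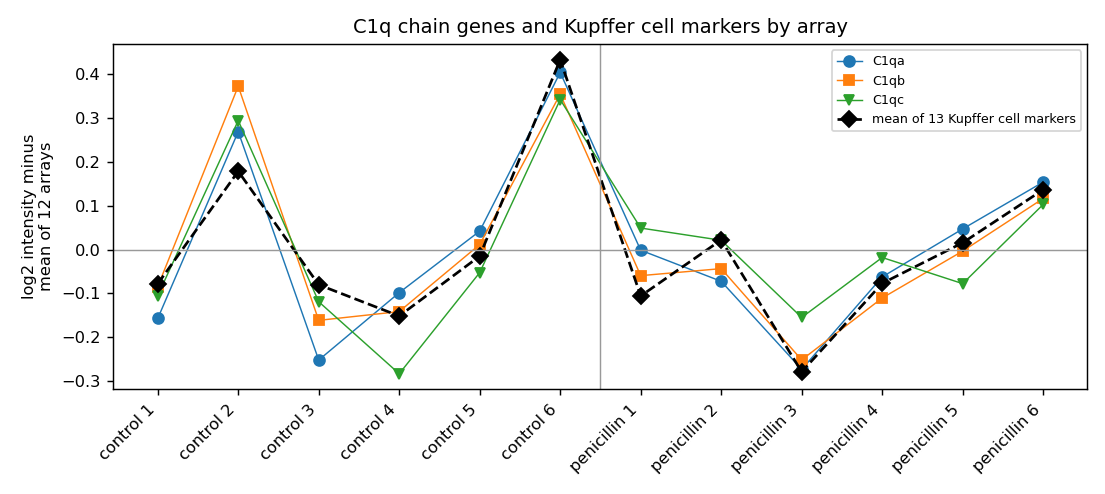
Log2 intensity minus the mean of the 12 arrays (y axis) for C1qa, C1qb and C1qc and, as a dashed line, for the mean of 13 Kupffer cell markers, by array (x axis, controls left of the line); lines join arrays only to guide the eye, and the order of arrays within a group has no meaning. All 4 lines are high in control 2 and control 6 and low in penicillin 3, where the marker mean is -0.28.

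The lectin pathway held the 3 complement members above 0 on the probesets used. Mbl1 and Mbl2, the mannose-binding lectins, had log2 differences of -0.06 and 0.06. Masp1, a protease bound to them, had 0.05, while its dimmer probesets above the filter gave -0.0048, -0.05 and -0.0064. Masp2, the protease that cleaves C4 and C2, was at 10.77, 10.89 and 10.91 in controls and 10.88, 10.92 and 11.02 with penicillin, a difference of 0.07 (SE 0.05, interval -0.04 to 0.17; limma adjusted p = 0.774). Its groups overlapped, with control 2 the lowest liver, and another, dimmer probeset gave -0.0026. No relation passed within the lectins or the proteases over the 12 arrays: r was -0.24 for Mbl1 with Mbl2 and -0.23 for Masp1 with Masp2 (permutation tests, adjusted p = 0.541 for both).

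The convertase genes C2 and Cfb, close together on chromosome 17, had log2 differences of -0.07 and -0.04. C2 was represented by a probeset whose name marks probes that can bind other transcripts, and its other 2 probesets gave -0.02 and -0.03. Control 6 was the highest liver for C2 and for Cfb, at 10.52 and 12.22, and without it their differences were 0.0078 and -2.8e-04. Their r of 0.65 over the 12 arrays did not pass (permutation test, adjusted p = 0.0502) and was 0.30 without that liver.

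All 6 measured genes of the terminal pathway were below 0, from -0.02 for C8g to -0.10 for C5, and none passed. C5, whose cleavage starts the pore, was at 12.72, 12.90 and 13.31 in controls and 12.72, 12.83 and 12.99 with penicillin, a log2 difference of -0.10 (SE 0.09, interval -0.29 to 0.09; limma adjusted p = 0.830). C9, which lines the pore, was at 13.05, 13.15 and 13.41 against 12.92, 13.12 and 13.24, a difference of -0.08 (SE 0.08; limma adjusted p = 0.859). Both were highest in control 6, and without it the differences were -0.03 and -0.03. C8a and C8b, chains of C8 encoded side by side, had -0.08 and -0.07, and C6 had -0.04. Without control 6 these were -0.0037, -0.03 and -0.01. Without control 1, control 3 and control 5 they were -0.22, -0.07 and -0.19. C5 was then at -0.20, C9 at -0.09 and C8g at 0.02. Of the 6 genes, 2 then had an unadjusted limma p under 0.05, both lower, against 2.25% of all genes that were lower at that level. For the chains of C8, r was 0.58 for C8a with C8b, -0.37 for C8a with C8g and 0.05 for C8b with C8g (permutation tests, adjusted p of 0.0733, 0.376 and 0.934). Whether these r differ from those of C1q was not tested.

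Of the regulators, Cfp had, on the probesets used, the largest difference of any member and the widest spread. Properdin, its product, stabilises the alternative convertase. Cfp was at 7.84, 8.09 and 8.59 in controls and 7.67, 7.97 and 8.16 with penicillin, a log2 difference of -0.20 (SE 0.12, interval -0.46 to 0.05; limma adjusted p = 0.715). Another, dimmer probeset gave -0.09, and its highest liver was control 3. On the probeset used the groups overlapped, control 6 was the highest liver, and without it the difference was -0.11. Neutrophil markers, of which 4 of 11 listed were measured, were also highest there, at 1.27 against -0.11 to 0.73 in the other controls and -0.86 to -0.25 with penicillin. All 4 were lower with penicillin, S100a8 most, with a median log2 intensity of 6.67 in controls and 5.06 with penicillin, and 0 passed. The neutrophil markers stood at 0.73 in control 1, with Cfp at 7.99, and at 0.14 in control 2, with Cfp at 8.29. Kupffer cell markers stood at 0.43 in control 6, 0.18 in control 2 and -0.28 in penicillin 3, where Cfp was at 8.59, 8.29 and 7.67. Their order differed in other livers: penicillin 1 was at -0.11 with Cfp at 8.04, and penicillin 2 at 0.02 with Cfp at 7.86. The part of either cell type in the level of Cfp was not tested. Cfi, factor I, and C4bp, its cofactor for C4b, had differences of -0.03 and -0.02, which were 0.01 and 0.05 without control 6. C3ar1, the receptor of the C3a fragment and the 1 receptor in the set, was at 5.66, 5.83 and 5.92 in controls and 5.51, 5.72 and 5.96 with penicillin, a difference of -0.10 (SE 0.07; limma adjusted p = 0.791).

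The members differed from each other in how far control 6 departed from the other 11 arrays, which is given as a description of 1 liver. The median departure was 0.27 for the 20 complement members, 0.10 for the 22 coagulation members, 0.91 for the acute phase list and 0.01 over all genes. Pros1 (0.63), Cfp (0.59), C8a (0.46), C5 (0.46), C2 (0.44), C4bp (0.44) and C1qa (0.44) departed most. Klkb1 (-0.15), C8g (-0.08), Serpind1 (-0.06), Serpinc1 (-0.04) and F11 (-0.02) lay below the mean of the others. Of these only Klkb1, at 11.91 in control 6, lay below all other arrays, which were at 11.96 to 12.16. C8a and C8g, chains of the same protein, departed in opposite directions. Fga (0.34), Fgb (0.26) and Fgg (0.19) lay between these ends.

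**Figure D4:**
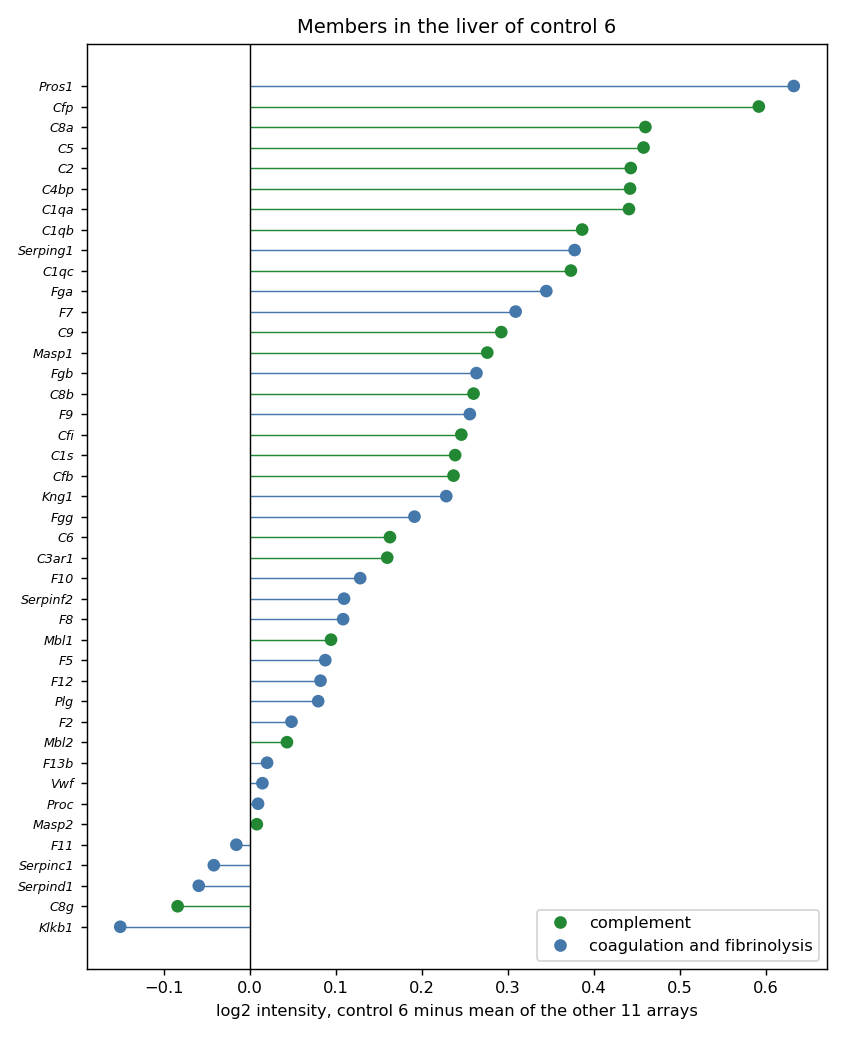
Log2 intensity of control 6 minus the mean of the other 11 arrays (x axis) for the 42 measured members (y axis, sorted), complement in green and coagulation in blue. Values run from 0.63 for Pros1 to -0.15 for Klkb1, and 37 of the 42 lie above 0.

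Spread between mice of a group also differed among members. The median residual SD on the log2 scale was 0.15 for complement and 0.09 for coagulation, against 0.15 over all genes. F2 (0.03), Serpinc1 (0.04), Plg (0.05) and C8g (0.05) were steadiest, while Cfp (0.22), C1qa (0.21), F11 (0.20) and Pros1 (0.20) varied most. Spread on arrays also depends on the brightness of a probeset, so this order is a description.

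Other genes of both pathways, from a list of 34 for complement and 39 for coagulation, of which 19 and 23 were measured, were counted in the same fit. Of complement, 7 were higher and 12 lower (median log2 difference -0.05), and of coagulation 4 higher and 19 lower (median -0.05), with 0 passing in limma. Without control 6 the counts were 8 and 11 for complement (median -0.0076) and 6 and 17 for coagulation (median -0.03). By smallest p, the complement genes were C1qbp, a mostly mitochondrial protein named for binding C1q (0.14, SE 0.06, limma adjusted p = 0.594), Cd55, which speeds the decay of convertases on cells (-0.15, SE 0.09), and Fcna, a ficolin (-0.12, SE 0.07). C1qbp was at 12.49, 12.64 and 12.78 in controls and 12.73, 12.77 and 12.91 with penicillin.

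Thbd, thrombomodulin of the endothelium, had the largest difference of the coagulation list, at -0.55 (SE 0.23, interval -1.05 to -0.04; limma adjusted p = 0.594). Its log2 intensity was 5.95, 6.80 and 7.38 in controls and 5.99, 6.12 and 6.42 with penicillin, so the spread lay mainly among controls. Control 3 was the highest liver for Thbd, at 7.38, followed by control 1 (7.24), control 6 (6.99) and control 5 (6.61). Immediate early genes, which respond within minutes to many stimuli, were high in control 1, control 3 and control 5, at 2.21, 2.27 and 1.55, and at -0.93 to -0.22 in all others. Without these 3 arrays the difference of Thbd was -0.16. Mcfd2, needed with Lman1 to export factors V and VIII, had -0.13 (SE 0.06), and F2r, a thrombin receptor, -0.21 (SE 0.13).

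The tissue label and the other cell types were read from fixed marker lists. Hepatocyte markers were nearly alike across livers, with a mean over 13 measured of 15 genes at -0.01 to 0.04 in controls and -0.10 to 0.05 with penicillin, and Tat had the widest range. As higher and lower genes with penicillin, the counts were 2 and 11 for hepatocytes, 8 and 8 for endothelial cells, 2 and 11 for stellate cells, 0 and 7 for cholangiocytes, 2 and 7 for platelets, 6 and 1 for T and B cells and 2 and 1 for erythroid cells. Transcription factors of hepatocytes gave 6 and 8, acute phase genes 0 and 27, immediate early genes 0 and 14 and clock genes 6 and 6. The even clock counts do not mean alike livers. The mean of the clock genes was 0.36 in control 6 and 0.50, 0.34 and 0.36 in penicillin 1, penicillin 5 and penicillin 6. In the other livers it was -0.41 to 0.06. Without control 6 the acute phase counts were 10 and 17. Without control 1, control 3 and control 5 the immediate early counts were 3 and 11, and their mean difference was -0.24 against -1.50. None of these genes passed in limma. Array pairs correlated at 0.989 to 0.997 over probesets, and no array was a copy of another.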

How the data were processed

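The authors deposited probeset intensity values made with RMA, per the submitters' processing notes, on a linear scale. RMA removes background, makes arrays alike and combines probes, so a change common to most genes would not show. Total RNA was labelled from 3-prime ends, per the labels' protocols. Here log2 was taken, and 45101 probesets were read, 34945 of them with 1 gene. The filter was the median probeset mean, 4.73 in log2 intensity. Symbols were updated through RefSeq of GRCm38.p6. Penicillin was compared with control in limma 3.58.1 (R 4.3.3, 6 against 6 arrays, no covariate, two-sided), fitted on all 11899 genes with Benjamini-Hochberg adjustment and a threshold of 0.05, and tested on simulated data. Nothing says whether mice shared cages, so the tests take them as independent. The number of arrays limits the precision, and levels of different probesets were not compared.

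Members and lists were chosen with earlier results of these data known. By the rule, full values are given for the 6 members of each cascade with the smallest p, the fibrinogen and C1q chains, F8, Vwf and Serpinc1, for the 3 other genes of each pathway with the smallest p, and for reference genes of widest range. Other members are given by difference, with further values for some chosen after these were seen. Pairs were tested with 100000 permutations over 16 pairs fixed with the design. Alternatives were other filters, normalizations, probesets, weights and variance priors, a replicate block and the omission of arrays.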

Additional observations from a re-analysis of the deposited data

Results flagged for a closer look

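Of 38 sets of 6 values checked for a single array far from the rest, 4 were picked out by Dixon's test at the 95% level, which chance reaches in about 1 of 20. Of the members, only the 17 with full values were checked, so members such as Pros1 were not. In controls, Fga stood at 13.68 in control 6, with the nearest control at 13.46 and the lowest at 13.34. Fgb stood at 14.50 in the same liver, with the nearest control at 14.34. Masp2 stood at 10.77 in control 2, below the other controls at 10.87 to 10.91. With penicillin, Serpinf2 stood at 12.06 in penicillin 5, below the others at 12.25 to 12.29. These are log2 intensities. Without control 6 the log2 difference was -0.11 for Fga and -0.09 for Fgb.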

How the results depend on the processing

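The count of members passing limma's threshold was 0 for complement and for coagulation under all 24 alternatives, as was that of all genes. Coagulation members with an unadjusted p under 0.05 numbered 0 to 4 over these alternatives, against 3 with all arrays. The median log2 difference ran from -0.13 to -0.0093 for complement and from -0.08 to -0.04 for coagulation. The outermost complement values were those without control 1, control 3 and control 5 (-0.13) and without control 6 (-0.0093). Same-numbered control and penicillin arrays deviated together with correlations of -0.255 to 0.385, and 3 of 6 controls correlated best with their own number. The numbers were not taken as pairs in the main fit, and whether same-numbered arrays share a factor was not tested. With the replicate block, the medians were -0.06 and -0.07, 0 members passed, and 0 coagulation members had an unadjusted p under 0.05. Over all genes, 1214 had an unadjusted limma p under 0.05 with the block, against 950 in the main fit, and 0 passed in either. Of the 17 members with full values, signs turned for C1qa, at -0.13 to 0.0045 when 1 array was left out, and for C1qc, at -0.085 to 0.040. C1qc was also at 0.0135 with array weights and at 0.0025 without control 6, penicillin 1, penicillin 5 and penicillin 6. Masp2 was at -0.0026 on its most variable probeset. For the other members, signs were compared only without control 6 and without control 1, control 3 and control 5. The cause was not tested. The fit without a variance prior was chosen after seeing the data. No detection calls were used here, so signal over background is not known for dim members such as Vwf and C3ar1.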

Other observations

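Of the members, 9 had several probesets above the filter. The sign of the difference was the same on all of them for 6 and differed for 3, which were C1qb, Masp1 and Masp2. The 3 probesets of C1qb gave log2 differences of -0.12, 0.03 and -0.03, the last 2 with a spread between mice of 0.34 and 0.53 against 0.19. For C3ar1 the 3 probesets gave -0.10, -0.19 and -0.14, and for F10, activated at the meeting point of the clotting routes, -0.07, -0.07 and -0.03.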
